A study of Mus musculus with 15 samples.

Results

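The subject is the effect of theta-burst stimulation of either kind on gene expression in mouse cortex, set against sham stimulation. The members are the 10 libraries whose columns in the raw count table are labelled iTBS or cTBS, out of 15 libraries in all, and the 5 libraries labelled sham are what they were compared with. Each library came from 1 wild-type C57BL/6J mouse, and all animals were killed 3 hours after a single session. The groups were intermittent theta-burst stimulation (iTBS, n = 5), continuous theta-burst stimulation (cTBS, n = 5) and sham (n = 5). The labels carry no age, sex or stimulation intensity, and they name the dissected area once as somatosensory and once as sensorimotor cortex. The total RNA had been depleted of ribosomal RNA and made into stranded libraries.

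In repetitive transcranial magnetic stimulation a coil over the head induces brief currents in the cortex below it. Theta-burst protocols give short high-frequency bursts repeated at the theta rhythm, with pauses in the intermittent form and without them in the continuous form, and in human motor cortex the intermittent form is known for raising and the continuous form for lowering excitability afterwards. Neuronal firing switches on immediate early genes such as Fos, Arc and Npas4 within minutes, and later genes follow over hours. Cortex also responds to corticosterone, the stress hormone of rodents, through the glucocorticoid receptor, which induces genes such as Fkbp5, Sgk1 and Klf15.

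Total counts per library ran from 15385070 to 47807723, with 32299 to 35449 genes detected, and the biological coefficient of variation was 20.1%. Cortical layer markers were present in every library, with the deep-layer gene Fezf2 at 17.3 to 32.9 CPM (counts scaled to equal library size) in stimulated and 16.4 to 35.2 CPM in sham libraries. Some libraries stood apart in transcripts of neighbouring tissue. Gh, the pituitary growth hormone gene, was at 18.8 CPM in iTBS 1 and at 14.4, 15.3, 40.4 and 12.8 CPM in sham 1, 2, 3 and 5, and at no more than 2.13 CPM elsewhere. Ttr, a choroid plexus transcript, was at 232 CPM in cTBS 4, 234 CPM in sham 2 and 249 CPM in sham 5. Prkcd, a marker of thalamic neurons, was at 65.1 CPM in sham 2 and at no more than 14.7 CPM elsewhere. Malat1, a noncoding RNA that stays in the nucleus, was at 1037 to 9143 CPM in stimulated and 1661 to 9617 CPM in sham libraries. Its mean was 6029 ± 2727 CPM in iTBS, 2595 ± 1232 CPM in cTBS and 5848 ± 3032 CPM in sham (SD, n = 5 each), and sham 4 was the lowest sham library. The library measures tested were total counts, genes detected and the CPM of Malat1, Ttr, Drd1 and Ddx3y. For these 6 the mean difference between stimulated and sham libraries gave an adjusted p of at least 0.495 (two-sided exact permutation test). That test pooled the protocols, so it does not cover differences between them. Mean total counts were 29745100 in iTBS and 40198200 in cTBS. Gh and Prkcd were not among these 6, and their pooled log2 fold changes were -3.06 ± 0.98 and -1.40 ± 0.52, each with an unadjusted p under 0.05 and an adjusted p of 0.799 in edgeR (Benjamini-Hochberg).

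**Figure D1:**
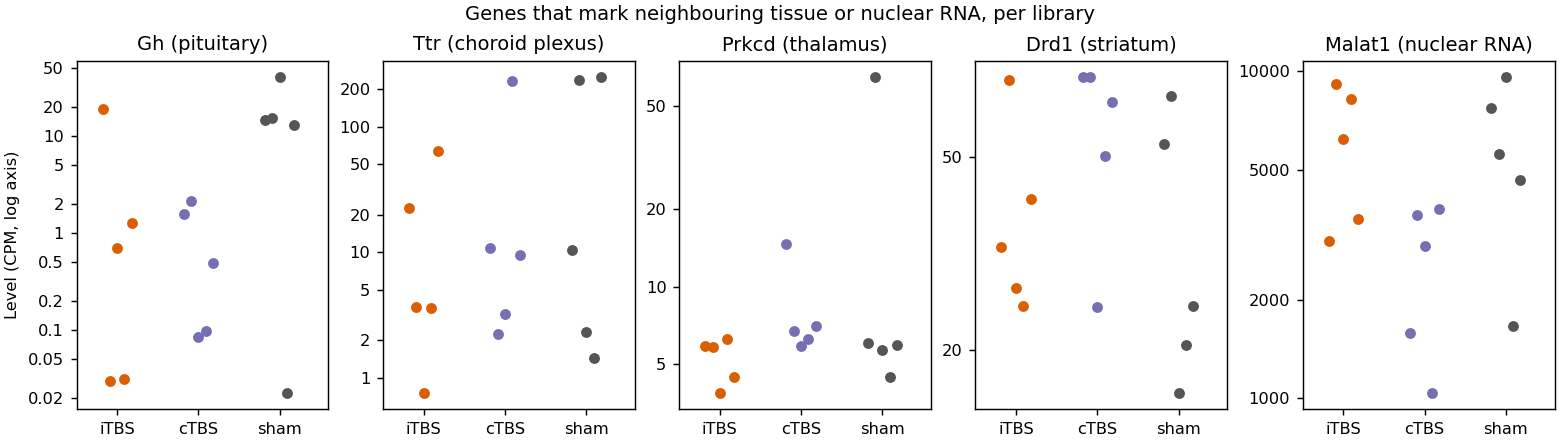
Level of 5 marker genes in CPM on log axes, 1 point per library, for iTBS, cTBS and sham. Gh is high in 4 sham libraries and iTBS 1, Ttr in cTBS 4, sham 2 and sham 5, Prkcd in sham 2, while Drd1 and Malat1 spread widely within every group.

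The first question was whether any gene differed between stimulated and sham cortex when both protocols were pooled. With edgeR's quasi-likelihood test and Benjamini-Hochberg adjustment, 0 of 22998 tested genes passed an adjusted p of 0.05 (0% called), and the smallest adjusted p was 0.799. At unadjusted p under 0.05 there were 259 higher genes, 1.13% of those tested, and 794 lower genes, 3.45%. Together these 1053 genes were fewer than the 1149.9 that the threshold alone gives. With DESeq2, 2 genes passed, Hunk and Pcdh20, both higher. Taken singly, iTBS against sham had 0 genes past the adjusted threshold and 443 at unadjusted p under 0.05, while cTBS against sham had 0 and 5623, of which 4058 were lower. The protocols differed from each other at unadjusted p under 0.05 in 7047 genes, again with 0 past adjustment in edgeR. Without sham 4, the pooled contrast had 1873 higher and 3054 lower genes at unadjusted p under 0.05 and 0 called, and cTBS against sham had 5726 called genes in edgeR (Benjamini-Hochberg). These are bulk samples, in which fewer cells of a type and less RNA per cell cannot be told apart.

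Hunk, which encodes a kinase of the AMPK-related family, had the smallest p of all genes. It was at 32.5, 33.2, 31.5, 36.3 and 29.6 CPM in iTBS libraries and 31.6, 32.9, 38.7, 37.6 and 35.2 CPM in cTBS libraries, against 26.1, 26.6, 28.7, 27.0 and 27.2 CPM in sham libraries. All 10 stimulated libraries lay above the highest sham library. The log2 fold change was 0.32 ± 0.06 (SE) pooled, 0.27 ± 0.07 for iTBS and 0.38 ± 0.07 for cTBS. The pooled adjusted p was 0.799 with edgeR and 0.00052 with DESeq2, both after Benjamini-Hochberg adjustment. Pcdh20, a cell adhesion protocadherin, was at 33.7, 29.3, 27.6, 29.3 and 25.6 CPM in iTBS libraries and 34.1, 30.7, 34.4, 32.2 and 35.7 CPM in cTBS libraries, against 24.5, 25.6, 24.1, 26.1 and 25.8 CPM in sham libraries. The cTBS libraries all lay above sham, and iTBS 5 lay inside the sham range. The log2 fold change of Pcdh20 was 0.31 ± 0.06 pooled, 0.21 ± 0.07 for iTBS and 0.40 ± 0.07 for cTBS, with an adjusted p of 0.799 in edgeR and 0.0293 in DESeq2 (Benjamini-Hochberg). The promoters of both genes are shown because these were the only genes called in the pooled contrast in any test of all 15 libraries without covariates. They are the RefSeq windows from 250 bases before to 50 bases after the annotated start in the mouse assembly GRCm38.p6, an earlier build than the GRCm39 of the counts. Hunk lies at chr16:90386147-90386446 on the plus strand and Pcdh20 at chr14:88471347-88471646 on the minus strand, each written 5′ to 3′ in gene direction.
Hunk: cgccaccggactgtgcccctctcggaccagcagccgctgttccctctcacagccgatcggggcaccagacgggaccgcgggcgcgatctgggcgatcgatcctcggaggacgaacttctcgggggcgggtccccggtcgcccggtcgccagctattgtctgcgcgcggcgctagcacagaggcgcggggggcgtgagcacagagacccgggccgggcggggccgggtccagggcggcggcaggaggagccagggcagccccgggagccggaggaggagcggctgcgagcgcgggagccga
Pcdh20: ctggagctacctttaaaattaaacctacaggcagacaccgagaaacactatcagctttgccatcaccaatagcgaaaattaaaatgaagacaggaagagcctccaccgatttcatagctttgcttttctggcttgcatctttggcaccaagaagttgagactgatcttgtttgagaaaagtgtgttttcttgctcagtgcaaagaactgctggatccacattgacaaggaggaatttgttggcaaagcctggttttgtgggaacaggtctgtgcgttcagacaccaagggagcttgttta
Capitals would mark any of 3 motifs searched on both strands, with overlaps allowed: the cyclic AMP response element TGACGTCA, the E-box CACGTG and the glucocorticoid response half-site TGTTCT, whose reverse complement is AGAACA. Neither window holds one. Of all 32851 RefSeq windows, 1.79% hold the first, 7.15% the second and 19% the third. Hunk's window is 75.7% G and C and that of Pcdh20 43.7%.

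Other genes higher after both protocols included a receptor, kinases and transcription factors. Htr1a, the inhibitory serotonin 1A receptor, was at 19.8, 15.1, 13.1, 14.6 and 13.7 CPM in iTBS libraries and 17.7, 19.6, 17.6, 17.8 and 14.7 CPM in cTBS libraries, against 11, 11.5, 11.5, 14.4 and 13 CPM in sham libraries. Of the 10 stimulated libraries 8 lay above the highest sham library, and the pooled log2 fold change was 0.41 ± 0.10. Cdc42ep1, an effector of the cytoskeletal GTPase Cdc42, was at 17.5, 15.7, 18.7, 15.7 and 17.1 CPM in iTBS libraries and 17.2, 15.7, 19, 16.5 and 16.7 CPM in cTBS libraries, against 13.7, 15, 13.1, 15.1 and 15.2 CPM in sham libraries. All 10 stimulated libraries lay above sham, at 0.23 ± 0.06. Klf11, a Krüppel-like transcription factor, was at 9.15 ± 0.633 CPM in iTBS, 9.0 ± 1.01 CPM in cTBS and 7.37 ± 0.586 CPM in sham (SD, n = 5 each), with 9 of 10 stimulated libraries above sham and a log2 fold change of 0.30 ± 0.08. Map3k21, a mixed-lineage kinase gene, was at 3.75 ± 0.362 CPM in iTBS, 3.57 ± 0.362 CPM in cTBS and 2.62 ± 0.482 CPM in sham, at 0.48 ± 0.13. The inhibitory SMAD gene Smad6 was less even between protocols, at 1.64 ± 0.189 CPM in iTBS, 1.05 ± 0.237 CPM in cTBS and 0.816 ± 0.173 CPM in sham. Its log2 fold changes were 1.01 ± 0.21 for iTBS and 0.37 ± 0.21 for cTBS, and the difference between protocols had an adjusted p of 0.0839 in edgeR (Benjamini-Hochberg). The remaining named genes on this side included Rasgef1b, an exchange factor for Ras-family GTPases (0.23 ± 0.06), and Slc8b1, the mitochondrial sodium/calcium exchanger (0.38 ± 0.11). Also among them were the chemokine gene Ccl28 (0.55 ± 0.16), the fibrillar collagen gene Col3a1 (0.42 ± 0.12) and Tmed1, a protein of early secretion (0.34 ± 0.10). Each of these 5 genes had 8 or 9 of 10 stimulated libraries above the highest sham library.

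**Figure D2:**
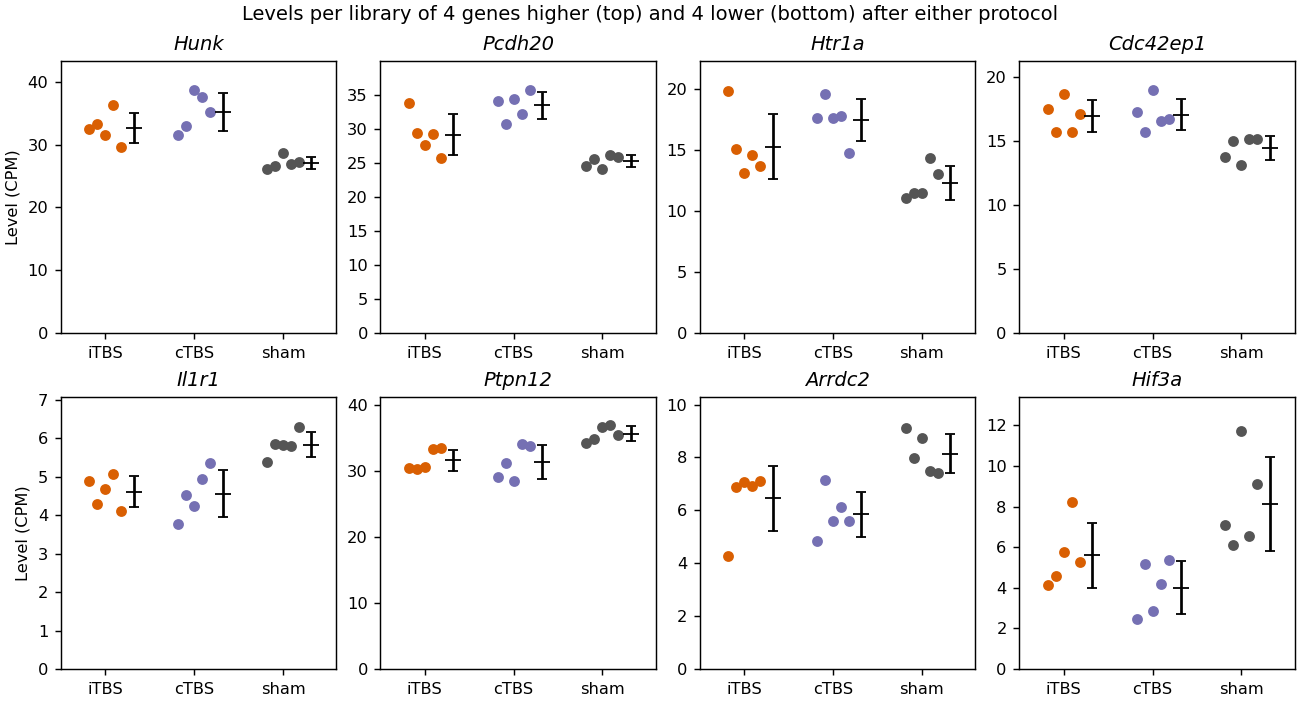
Level in CPM, 1 point per library with mean ± SD beside them, of 4 genes higher (top row) and 4 lower (bottom row) after both protocols; axes start at 0. All 10 stimulated libraries lie above sham for Hunk and Cdc42ep1 and below sham for Il1r1, Ptpn12 and Arrdc2.

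Among genes lower after both protocols, Il1r1, the signalling receptor of interleukin 1, was at 4.88, 4.28, 4.68, 5.08 and 4.12 CPM in iTBS libraries and 3.78, 4.53, 4.24, 4.93 and 5.35 CPM in cTBS libraries, against 5.4, 5.84, 5.83, 5.79 and 6.30 CPM in sham libraries. All 10 stimulated libraries lay below the lowest sham library, and the log2 fold change was -0.34 ± 0.11 for iTBS and -0.35 ± 0.11 for cTBS. Arrdc2, an arrestin-domain gene, was at 4.26, 6.89, 7.08, 6.93 and 7.12 CPM in iTBS libraries and 4.83, 7.13, 5.61, 6.14 and 5.59 CPM in cTBS libraries, against 9.10, 7.97, 8.74, 7.50 and 7.41 CPM in sham libraries. The groups did not overlap, and the pooled log2 fold change was -0.40 ± 0.12. Ptpn12, a protein tyrosine phosphatase gene, was at 28.5 to 34.1 CPM in stimulated and 34.3 to 37.0 CPM in sham libraries, also without overlap, at -0.18 ± 0.05. Hif3a, a hypoxia-inducible factor subunit, was at 4.12, 4.58, 5.76, 8.25 and 5.27 CPM in iTBS libraries and 2.47, 5.19, 2.83, 4.19 and 5.37 CPM in cTBS libraries, against 7.09, 6.11, 11.7, 6.55 and 9.10 CPM in sham libraries. Only iTBS 4 reached into the sham range, and the pooled log2 fold change was -0.77 ± 0.21. Banp, a nuclear DNA-binding protein gene, had the smallest p of the 12 named genes on this side, at 26.0 ± 2.46 CPM in iTBS, 23.2 ± 2.66 CPM in cTBS and 31.4 ± 4.07 CPM in sham (-0.36 ± 0.08). Ccn4, a secreted matricellular protein gene, was at 6.69 ± 1.29 CPM in iTBS, 7.42 ± 1.00 CPM in cTBS and 10.1 ± 1.73 CPM in sham (-0.52 ± 0.13). The remaining named genes were Sgms1, a sphingomyelin synthase (-0.18 ± 0.05), Hcfc2, a host cell factor (-0.19 ± 0.05), St7 (-0.31 ± 0.09), Pdgfb, the growth factor that recruits pericytes (-0.30 ± 0.08), Scube2, a secreted protein that helps release Hedgehog ligands (-0.73 ± 0.21), and Klf15, described with the glucocorticoid genes. None of the 24 named genes passed an adjusted p of 0.05 in edgeR with Benjamini-Hochberg adjustment.

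Complete separation of the 10 stimulated from the 5 sham libraries was seen in 5 higher genes, 0.0217% of those tested, and 5 lower genes, also 0.0217%. With shuffled labels, a gene separates completely in a given direction with a probability of 0.000333 (exact permutation). Both observed shares were smaller than this. Complete separation, here and where it is given for single genes, is therefore no evidence of a difference by itself. The higher ones were Hunk, Cdc42ep1, Znrd1as, Arl11 and A130010J15Rik, and the lower ones Il1r1, Ptpn12, Arrdc2, Zfp800 and Cthrc1. Those not yet described were singled out after their values had been seen. Cthrc1, a secreted collagen triple helix protein gene, was at 3.45 to 5.24 CPM in stimulated and 5.25 to 6.00 CPM in sham libraries (-0.24 ± 0.10). Zfp800, a zinc finger gene, was at 15.1 to 19.6 CPM in stimulated and 19.9 to 21.4 CPM in sham libraries (-0.17 ± 0.06). Arl11, a GTPase gene, was at 0.316 to 0.589 CPM in stimulated and 0.163 to 0.288 CPM in sham libraries, and Znrd1as, an antisense transcript, at 0.818 to 1.28 CPM in stimulated and 0.510 to 0.812 CPM in sham libraries. The strand setting of the counting is not given in the sources used here, so the reads of Znrd1as and of its partner gene may not be separable.

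The second question was which genes moved the same way under both protocols. At unadjusted p under 0.05 in each protocol against sham, 54 genes were higher in both, 0.235% of those tested, and 26 were lower in both, 0.113%, while 11 lay in opposite directions. Both comparisons use the same 5 sham libraries, so a sham library that stands apart moves both together. Over all tested genes, whatever their p, 22.3% were higher and 26.2% lower in both protocols. The 54 higher genes had a median pooled log2 fold change of 0.33 with a range of 0.11 to 1.49, and the 26 lower genes a median of -0.47 with a range of -1.91 to -0.16. Protein-coding genes made up 85.2% of the higher and 80.8% of the lower genes, against 66.3% of all tested genes. The protocols differed from each other at unadjusted p under 0.05 in 1 of the 54 genes, Pcdh20, and in 0 of the 26, against 7047 of all 22998 tested genes. Passing in the same direction in both protocols leaves little room for such a difference, so nothing is read from these counts. Of the 24 named genes, Smad6, Tmed1, Sgms1 and Klf15 lay outside these sets because 1 protocol missed the threshold. The highest pooled value was that of H19, an imprinted noncoding RNA, at 1.49, but its mean level was only 0.358 CPM.

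**Figure D3:**
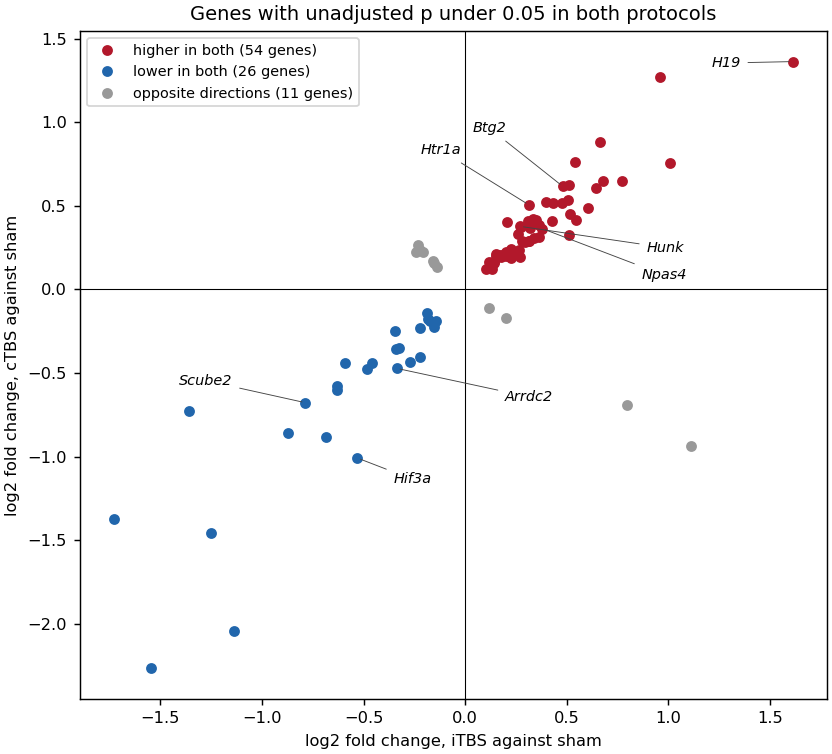
Log2 fold change for iTBS against sham (horizontal) and cTBS against sham (vertical) of the 91 genes with unadjusted p under 0.05 in each; each point is 1 gene. The threshold and the shared sham libraries put the 54 and 26 points near the diagonal; 11 genes lie in the opposite quadrants.

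How firmly these sets are fixed depended on the libraries. Without sham 4 they held 176 higher and 94 lower genes, with 47 of the 54 and 18 of the 26 still among them. Without sham 2 the lower set held 47 genes, without iTBS 1 it held 16 and without cTBS 3 it held 15. With the Gh level of each library as a covariate, added after the data had been seen, 30 higher and 29 lower genes were left, of which 21 and 10 belonged to the sets above. The part of pituitary, choroid plexus or thalamic tissue in these sets was not tested. Pooling can also hide opposite differences. Adgrl2, a latrophilin adhesion receptor, was at 165 ± 3.86 CPM in iTBS and 140 ± 4.48 CPM in cTBS, with 152 ± 4.99 CPM in sham (SD, n = 5 each), and its pooled log2 fold change was 0.00 ± 0.04. Acp1, a low molecular weight phosphatase gene, Chmp2a, a subunit of the membrane-remodelling ESCRT-III complex, Hint1, a nucleotide hydrolase gene, and Cirbp, a cold-inducible RNA-binding protein gene, lay the other way, at -0.24 to -0.14 for iTBS and 0.13 to 0.22 for cTBS. These 5 are the genes with the smallest p between protocols among those with a mean of at least 1 CPM and a gene symbol that is not a clone or predicted-gene name. Without these limits BX649560.1 (0.20 for iTBS and -0.17 for cTBS), Gm29776 (1.11 and -0.94), Gm43684 (0.80 and -0.69) and 2410015M20Rik (-0.21 and 0.22) would have come before Acp1. None of the 5 symbol-named genes passed in edgeR for the difference between protocols (Benjamini-Hochberg), and over 27 alternatives the adjusted p of Adgrl2 ran from 0.00187 to 0.664.

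Genes switched on by neuronal activity showed no shift shared by the list. Of 20 immediate early genes, 8 were higher and 12 lower in stimulated cortex, against 45.2% higher and 54.8% lower over all tested genes. Past adjustment in edgeR there were 0, and the median log2 fold change was -0.06, against -0.02 over all tested genes. Exceptions at unadjusted p under 0.05 in both protocols were Btg2 and Npas4, both higher, against 0.235% of all tested genes. Btg2, an antiproliferative immediate early gene, was at 16.5, 30.1, 22.5, 22.1 and 25.7 CPM in iTBS libraries and 29.7, 23.4, 35.5, 21.1 and 18.8 CPM in cTBS libraries, against 24.9, 13.6, 16.9, 15 and 13.5 CPM in sham libraries. Sham 1 and sham 3 lay inside the stimulated range, 4 stimulated libraries lay above all sham libraries, and the pooled log2 fold change was 0.55 ± 0.18 (edgeR, Benjamini-Hochberg adjusted p = 0.799). Npas4, the calcium-dependent transcription factor of active neurons, was at 20.7, 37.8, 38.6, 34.8 and 38.3 CPM in iTBS libraries and 30.9, 28.5, 44.1, 35.9 and 28.9 CPM in cTBS libraries, against 29.6, 21.0, 29.9, 27.1 and 23.2 CPM in sham libraries. Of the stimulated libraries 7 lay above sham and iTBS 1 lay below it, with a pooled value of 0.37 ± 0.14. Maff, a small MAF factor gene, had the next smallest p of the list, at -0.38 ± 0.19. The best-known members overlapped sham. Fos was at 36.9 ± 12.1 CPM in iTBS, 50.4 ± 9.55 CPM in cTBS and 37.4 ± 5.73 CPM in sham, and Arc, a regulator of AMPA receptor endocytosis, at 349 ± 119 CPM in iTBS, 416 ± 125 CPM in cTBS and 450 ± 106 CPM in sham. Egr1 (-0.10 ± 0.17), Nr4a1 (0.04 ± 0.20), the neurotrophin gene Bdnf (-0.05 ± 0.11), the postsynaptic scaffold gene Homer1 (-0.10 ± 0.09) and the synaptic pentraxin gene Nptx2 (-0.07 ± 0.11) lay close to 0, and the signs of Egr1, Nr4a1, Bdnf and Nptx2 turned when single libraries were left out. Late activity-response genes had 7 of 20 higher and 13 lower, with a median of -0.05. At unadjusted p under 0.05 in the pooled contrast 2 members were lower, against 3.45% of all tested genes. Within this list Tiparp, a mono-ADP-ribosyltransferase gene, was at -0.53 ± 0.14 for iTBS and -0.05 ± 0.14 for cTBS. The phosphatase gene Dusp4 was at -0.48 ± 0.21 and -0.29 ± 0.20, and Serinc2 at -0.26 ± 0.25 and -0.50 ± 0.24. The MAP kinase phosphatases and Sprouty feedback genes had 3 of 14 higher and 11 lower, with a median of -0.04, and their leading members after Dusp4 were Spry4 (-0.23 ± 0.12) and Dusp5 (-0.29 ± 0.21).

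Genes induced by glucocorticoids lay lower after both protocols. Of 20 listed genes 19 were tested. All 19 had a pooled log2 fold change below 0, and 17 were below 0 in each protocol, against 54.8% of all tested genes for the pooled sign and 26.2% for both. The median was -0.24 pooled, -0.23 for iTBS and -0.19 for cTBS, against -0.02, -0.001 and -0.02 over all tested genes. An unadjusted p under 0.05 in the pooled contrast was reached by 8 members, all lower, against 3.45% of all tested genes. Only 2 members reached it in both protocols, each lower in both, against 0.113% of all tested genes. Past adjustment there were 0 members in edgeR. The list was known from earlier results of these data to lie lower, so its count is no independent evidence. Its mean level per library, in log2 CPM, was 4.36, 4.50, 4.59, 4.74 and 4.68 in iTBS libraries and 4.32, 4.72, 4.42, 4.78 and 4.60 in cTBS libraries, against 4.80, 4.76, 4.89, 4.94 and 4.87 in sham libraries. Of the 10 stimulated libraries 9 lay below the lowest sham library, and cTBS 4 lay between sham 2 and sham 1.

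Within the list the members with the smallest p were Hif3a, Klf15 and Arrdc2. Klf15, a Krüppel-like factor that glucocorticoids induce, was at 14.1, 14.2, 16.1, 16.6 and 16.5 CPM in iTBS libraries and 17.1, 19.1, 18.6, 21.4 and 17.9 CPM in cTBS libraries, against 17.8, 19.1, 21.5, 21.7 and 20.7 CPM in sham libraries. The iTBS libraries all lay below sham, while 4 of 5 cTBS libraries lay inside the sham range. Its log2 fold change was -0.38 ± 0.08 for iTBS and -0.10 ± 0.08 for cTBS, and the difference between protocols had an adjusted p of 0.0838 in edgeR (Benjamini-Hochberg). Sgk1, the serum and glucocorticoid regulated kinase, was at 47.8, 65.3, 66.8, 74.6 and 92.1 CPM in iTBS libraries and 55.8, 108, 49.2, 120 and 72.9 CPM in cTBS libraries, against 103, 117, 89.5, 123 and 76.6 CPM in sham libraries. Of the stimulated libraries 7 lay below sham, and cTBS 2 and cTBS 4 stood high, at a pooled -0.44 ± 0.19. Fkbp5, a co-chaperone that dampens the glucocorticoid receptor, was at 22.2, 23.2, 21.6, 21.4 and 24.7 CPM in iTBS libraries and 24, 30.4, 19.4, 26.4 and 29.6 CPM in cTBS libraries, against 26.6, 28, 24.8, 30.1 and 32.7 CPM in sham libraries. All iTBS libraries lay below sham and 3 of 5 cTBS libraries lay inside its range. The pooled value was -0.23 ± 0.09. Per1, a clock gene with glucocorticoid control, was at 125 ± 30.1 CPM in iTBS, 150 ± 43.1 CPM in cTBS and 172 ± 22.5 CPM in sham (-0.33 ± 0.16). Plin4, a lipid droplet protein gene named after its values had been seen, was at -0.59 ± 0.30 for iTBS and -1.15 ± 0.31 for cTBS. Nr3c1, the glucocorticoid receptor gene, was at 167 ± 14.1 CPM in iTBS, 173 ± 12.5 CPM in cTBS and 161 ± 12.1 CPM in sham (0.08 ± 0.06). Of 8 genes for corticosteroid receptors and corticosterone metabolism, 7 were higher in the pooled contrast, against 45.2% of all tested genes. Only 3 were higher in both protocols, against 22.3%, and 0 reached unadjusted p under 0.05 in the pooled contrast. Their median was -0.002 for iTBS and 0.09 for cTBS. The mineralocorticoid receptor gene Nr3c2 was at 0.12 ± 0.07, Hsd11b2, which inactivates corticosterone, at -0.70 ± 0.42 and Hsd11b1, which regenerates it, at 0.18 ± 0.13.

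**Figure D4:**
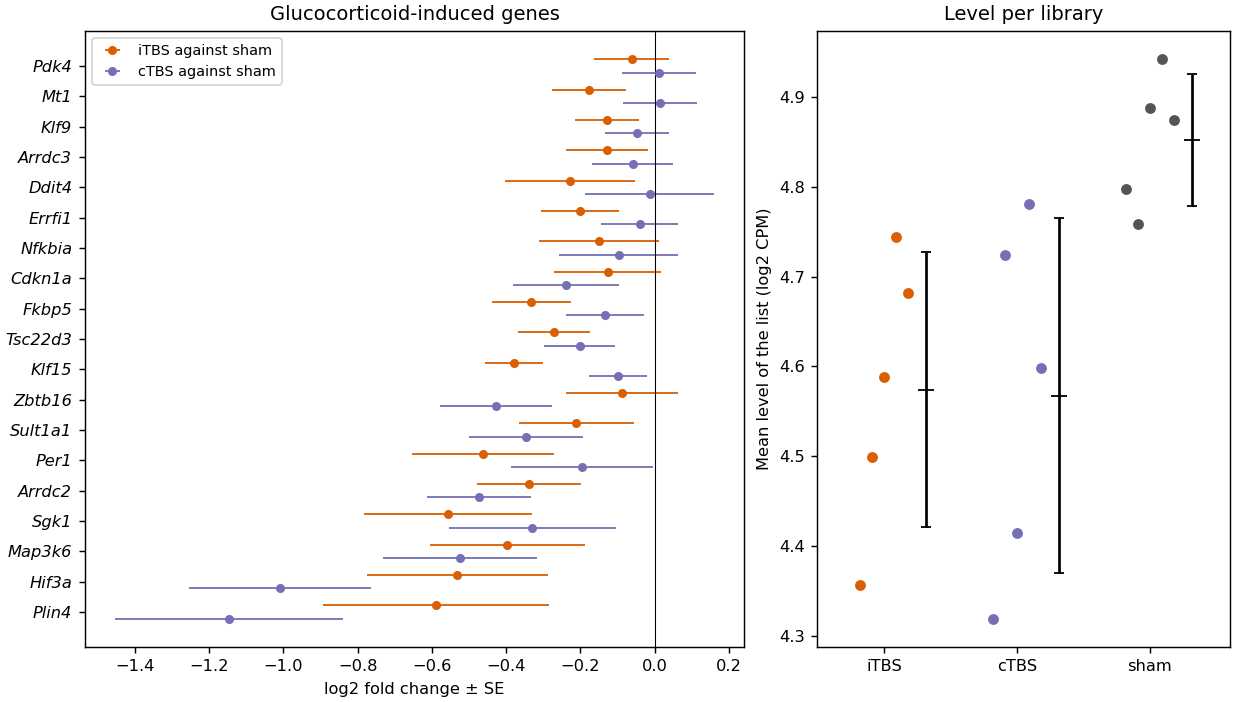
Left, log2 fold change ± SE of the 19 tested glucocorticoid-induced genes for iTBS and cTBS against sham; right, the mean level of the list in log2 CPM per library with mean ± SD. In the right panel 9 of the 10 stimulated libraries lie below the lowest sham library, and the gene order on the left runs by the pooled fold change.

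Other measures moved beside this list. The libraries carry a running number in the sample descriptions, whose mean was 7.4 in stimulated and 9.2 in sham libraries, and iTBS 1 and cTBS 1, numbered 1 and 2, had the lowest list levels. With that number as a covariate the median was -0.20. Without sham 4, the library with the highest list level, the median was -0.17 and 14 of 19 members lay lower, 5 of them at unadjusted p under 0.05. Over all tested genes without sham 4, 3054 of 23508 lay lower at that threshold, against 794 of 22998 with all libraries. With the Gh level as a covariate the list's median was -0.30. The part of neighbouring tissue in the list's level was not tested. Promoters of Klf15 and Sgk1 are shown as those of 2 members with matches to the motifs above. Klf15 lies at chr6:90462326-90462625 and the Sgk1 window with the most matches, of 6 for that gene, at chr10:21993640-21993939, both on the plus strand of GRCm38.p6, with every match in capitals.
Klf15: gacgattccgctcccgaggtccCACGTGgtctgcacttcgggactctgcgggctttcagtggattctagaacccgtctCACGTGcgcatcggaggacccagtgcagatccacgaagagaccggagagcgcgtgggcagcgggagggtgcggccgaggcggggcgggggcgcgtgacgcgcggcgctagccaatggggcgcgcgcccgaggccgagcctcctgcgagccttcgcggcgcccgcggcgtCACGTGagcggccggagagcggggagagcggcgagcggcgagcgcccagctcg
Sgk1: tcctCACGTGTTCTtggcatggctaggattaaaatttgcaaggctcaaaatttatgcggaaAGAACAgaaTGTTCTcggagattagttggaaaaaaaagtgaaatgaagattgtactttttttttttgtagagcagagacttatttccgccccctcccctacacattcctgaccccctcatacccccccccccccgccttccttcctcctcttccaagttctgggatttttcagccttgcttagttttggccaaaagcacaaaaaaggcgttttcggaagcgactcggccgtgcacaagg
Klf15 holds 3 E-boxes and the Sgk1 window 1 E-box, overlapped by the first of 3 half-sites. For the counts below, 19% of all RefSeq windows hold a half-site, 7.15% an E-box and 1.79% a cyclic AMP response element. In the list, 19 of 20 genes had RefSeq windows, 31 in all. Of these windows 5 held a half-site (in Sgk1, Sult1a1 and Tsc22d3), 4 an E-box and 1 a cyclic AMP response element. Among the 24 named genes, 8 of the 12 lower ones had windows, 15 in all, of which 4 held an E-box (Hcfc2, Klf15 and St7), 1 a half-site (Il1r1) and 1 a cyclic AMP response element (St7). Of the 12 higher ones 11 had windows, 12 in all, of which 1 held an E-box (Klf11) and 1 a half-site (Smad6). A match is a description of letters, not a binding site.

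Clock genes and growth factor feedback genes had no common direction. Of 20 circadian clock genes 7 were higher and 13 lower, with a median of -0.03. Per2 was at 45.0 ± 9.06 CPM in iTBS, 36.4 ± 8.10 CPM in cTBS and 52.9 ± 8.96 CPM in sham (-0.39 ± 0.14), and Per1 was given above. Of 24 BMP and TGF-beta feedback genes 13 were higher and 11 lower, with a median of 0.01. Beside Smad6, Klf10, a TGF-beta-inducible repressor, was at -0.56 ± 0.15 for iTBS and 0.03 ± 0.15 for cTBS, and Id3, an inhibitor of helix-loop-helix factors, at 0.03 ± 0.11 and 0.33 ± 0.11.

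Transmitter receptor genes lay close to sham. Of 20 genes for GABA receptors and GABA synthesis, 16 were higher in the pooled contrast, 2 of them at unadjusted p under 0.05, against 45.2% and 1.13% of all tested genes. The list's median was 0.06 pooled, 0.01 for iTBS and 0.11 for cTBS, and its mean level was 7.31 log2 CPM in iTBS, 7.45 in cTBS and 7.31 in sham. Slc32a1, the vesicular GABA transporter, was at 55.8 ± 7.28 CPM in iTBS, 69.5 ± 11 CPM in cTBS and 52.1 ± 6.87 CPM in sham (0.26 ± 0.10), and Gabrd, the delta subunit of extrasynaptic receptors, at 0.14 ± 0.06. Gad1, the main GABA-synthesizing enzyme, was at 330.4 ± 31.1 CPM in iTBS, 383 ± 45.0 CPM in cTBS and 321 ± 30.6 CPM in sham (0.15 ± 0.08). Of 13 serotonin receptor genes 9 were higher, 1 of them at unadjusted p under 0.05, with a median of 0.05 for iTBS and 0.18 for cTBS. After Htr1a came Htr7 at 0.16 ± 0.11 and Htr1d at 0.49 ± 0.34. The AMPA receptor list had 8 of 13 members higher and a median of 0.02, and Gria1 was at 377 ± 29.3 CPM in iTBS, 424 ± 42.5 CPM in cTBS and 378 ± 31.7 CPM in sham. The NMDA receptor list had 5 of 7 higher and a median of 0.03, and the obligatory subunit gene Grin1 was at 384 ± 15.8 CPM in iTBS, 328 ± 24.1 CPM in cTBS and 359.7 ± 65.9 CPM in sham. The families of the leading genes had no common direction. Non-clustered protocadherins, with Pcdh20 counted, had 5 of 12 higher, a median of -0.01 and Pcdh15 at -0.25 ± 0.10. AMPK-related kinases, with Hunk counted, had 11 of 17 higher, a median of 0.01 and Sik2 at -0.23 ± 0.08.

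Several lists of housekeeping genes and nuclear RNA had medians of opposite sign in the protocols. For the counts below, 45.2% of all tested genes were higher and 54.8% lower in the pooled contrast. Cytosolic ribosomal protein genes had 42 of 45 members higher in the pooled contrast, yet the median was -0.08 for iTBS and 0.22 for cTBS, and 0 members had the same sign in both. Their leading members were Rpl35 (0.14 ± 0.09), Rps4x (0.09 ± 0.07) and Rpl37 (0.11 ± 0.08). Nuclear-encoded respiratory chain genes had 30 of 32 higher, with -0.04 for iTBS and 0.22 for cTBS, led by Sdhc (0.16 ± 0.08), Sdhd (0.12 ± 0.07) and Ndufb9 (0.14 ± 0.09). Nuclear-retained noncoding RNAs had 10 of 11 lower, with 0.04 for iTBS and -0.99 for cTBS, led by Rmst (-0.41 ± 0.18), Kcnq1ot1 (-0.71 ± 0.34) and Mirg (-0.61 ± 0.33). None of these lists held a gene past adjustment in edgeR.

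Markers of tissue next to the cortex spread widely between libraries. For the counts below, 45.2% of all tested genes were higher and 54.8% lower in the pooled contrast. In both protocols 22.3% were higher and 26.2% lower, and 1.13% were higher at unadjusted p under 0.05 in the pooled contrast. Striatal projection neuron markers had 16 of 16 members higher in both protocols, with medians of 0.25 for iTBS and 0.67 for cTBS and 0 members at unadjusted p under 0.05. Without sham 2 the pooled median was 0.78, against 0.47 with all libraries, and 10 of 16 members reached unadjusted p under 0.05. Without cTBS 3 that count was 6. Over all tested genes, the number higher at that threshold ran from 172 to 1873 with 1 library left out. The shares without sham 2 and without cTBS 3 are not given here, so nothing is read from these counts. The mean level of the list was 5.16 ± 0.604 log2 CPM in iTBS, 5.64 ± 0.636 in cTBS and 4.80 ± 0.857 in sham, and the leading members were Ppp1r1b (0.46 ± 0.24), Foxp1 (0.14 ± 0.08) and Adora2a (0.82 ± 0.48). Choroid plexus markers had 10 of 10 lower, with a pooled median of -1.16 that was -0.67 without sham 2, -0.58 without sham 5 and 0.41 without sham 2, sham 5 and cTBS 4, and were led by Prlr (-1.24 ± 0.53), Sostdc1 (-1.25 ± 0.53) and Slc4a5 (-1.43 ± 0.78). Thalamic markers had 10 of 10 lower, with a pooled median of -0.46 that turned to 0.04 without sham 2, and were led by Prkcd (-1.40 ± 0.52), Lef1 (-0.51 ± 0.19) and Tcf7l2 (-0.77 ± 0.31). Hippocampal neuron markers had 5 of 7 tested members higher, 3 of them in both protocols, with medians of -0.01 for iTBS and 0.31 for cTBS. Their mean level was 3.52 log2 CPM in cTBS 5, 2.123 to 2.604 in the other stimulated libraries and 2.176 to 2.601 in sham libraries. The pooled median of 0.21 was 0.07 without cTBS 5 and 0.12 without sham 3, and the leading members were Fibcd1 (0.21 ± 0.15), Lct (0.43 ± 0.35) and Cpne7 (-0.15 ± 0.13). Meningeal fibroblast markers had 11 of 12 higher, 2 of them at unadjusted p under 0.05, and a median of 0.18. Without sham 4 the median was 0.33 with 8 members at that threshold, and without sham 2, sham 5 and cTBS 4 it was 0.07 with 4 members lower. Over all tested genes without sham 4, 1873 of 23508 were higher at that threshold, against 259 of 22998 with all libraries. Beside Col3a1, the leading members were the GABA transporter gene Slc6a13 (0.21 ± 0.09) and the collagen gene Col1a2 (0.42 ± 0.21). Within the cortex, microglia markers had 12 of 12 higher with medians of -0.03 for iTBS and 0.17 for cTBS, led by C1qc (0.15 ± 0.07), Cx3cr1 (0.15 ± 0.08) and Csf1r (0.08 ± 0.06). Layer 6 and subplate markers had 6 of 9 higher, with medians of -0.001 for iTBS and 0.23 for cTBS and 5 stimulated libraries above all sham libraries, and were led by Tle4 (0.10 ± 0.06), Rprm (0.16 ± 0.10) and Nxph4 (-0.17 ± 0.14). Medians were of opposite sign in the protocols for astrocyte markers, at -0.04 for iTBS and 0.13 for cTBS, and for oligodendrocyte markers, at -0.06 and 0.21. The pooled medians of interneuron, pan-neuronal, layer 5 and upper-layer markers lay between 0.00 and 0.04.

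**Figure D5:**
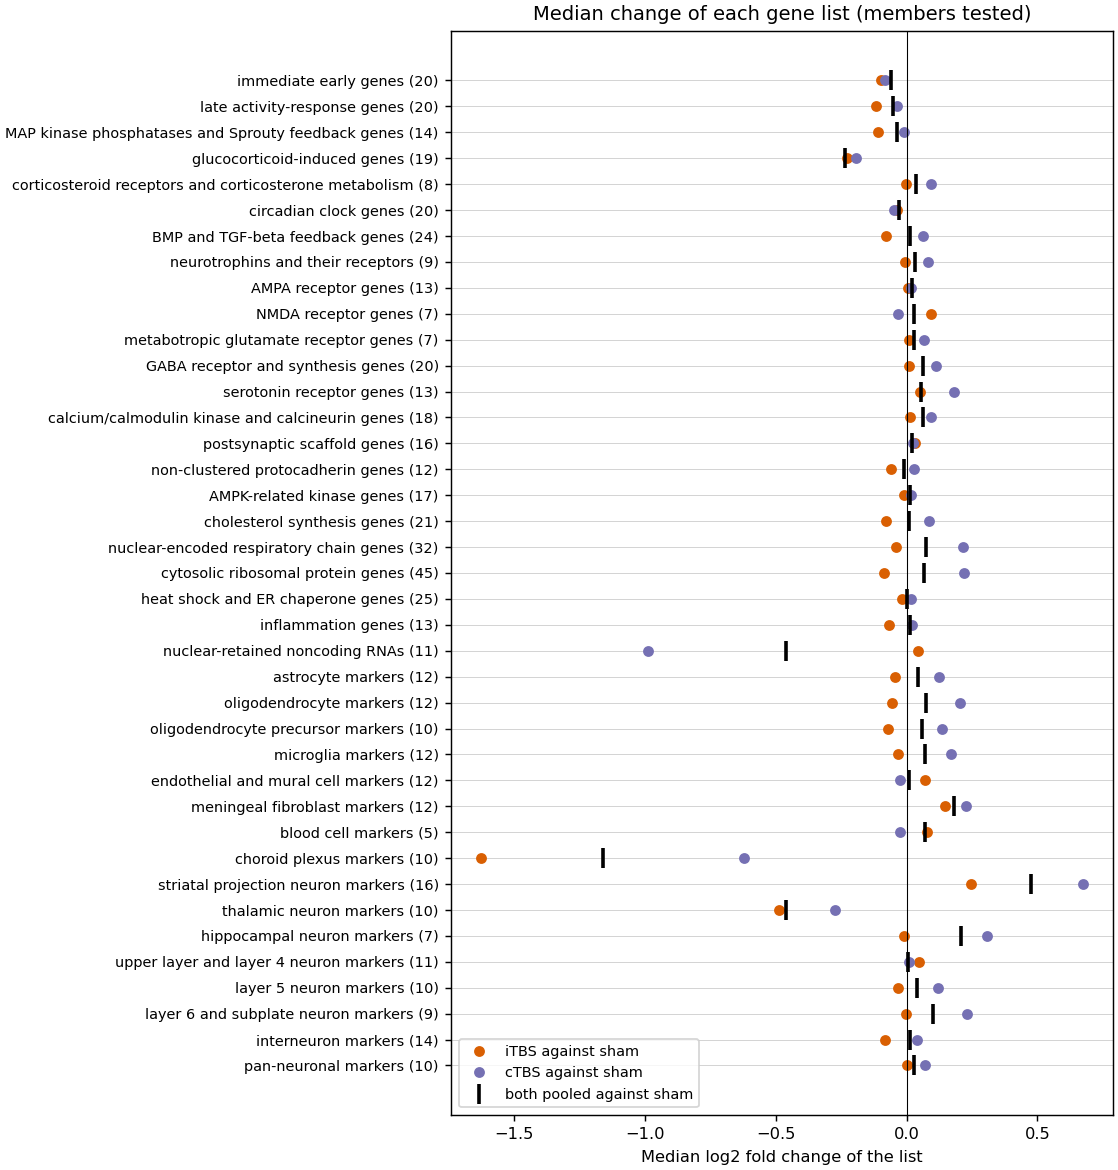
Median log2 fold change of each gene list with at least 5 tested members (number tested in brackets), for iTBS and cTBS against sham and for both pooled; 0 is no difference. Glucocorticoid-induced genes have medians of -0.23 and -0.19 in the protocols, while ribosomal, respiratory chain and nuclear-retained lists have medians of opposite sign in them.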

How the data were processed

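RNA of cortex from 15 mice (5 iTBS, 5 cTBS, 5 sham; 3 hours after stimulation) was sequenced. The authors deposited raw counts per Ensembl gene, without normalization, and variance-stabilized values close to a log2 scale. The submitters' processing notes name fastp, STAR, DESeq2 and the mouse build GRCm39 (mm39), without roles or versions. Which program counted reads, on which annotation and with which strand option, is not given in the sources used here, so overlapping and antisense genes are uncertain. Of 56748 identifiers 52073 had a symbol.

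The main test was edgeR 4.0.16 (quasi-likelihood F test, TMM scaling, default expression filter by group; R 4.3.3) on the counts as deposited, with 1 term per group and the mean of iTBS and cTBS minus sham as the pooled contrast. It tested 22998 of 45315 genes with counts, holding 99.9% of counts, with Benjamini-Hochberg adjustment and a threshold of 0.05, and was tested on simulated data. The SE of a log2 fold change is its size over the square root of F. CPM used TMM-scaled library sizes, and levels in log2 CPM a prior count of 2. P-values measure the spread between these animals.

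The members, rules and gene lists were chosen with earlier results of these data known. Named genes were the 12 higher and 12 lower with the smallest pooled p among those with mean CPM of at least 1, a gene symbol that is not a clone or predicted-gene name and the same sign in both protocols; a set of 15 plasticity and stress genes; the 3 members with the smallest p of each list described; and the 5 genes with the smallest p between protocols among those in opposite directions, to which the same limits on level and symbol were applied, although the rule as first written did not state them there. Some genes that this rule takes are not reported here. Of 599 list symbols, 598 were matched and 580 tested. Alternatives were other scalings, filters and tools (DESeq2 1.42.0, limma 3.58.1), covariates, and libraries left out. Promoter windows were RefSeq's on GRCm38.p6.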

Additional observations from a re-analysis of the deposited data

Results flagged for a closer look

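In groups of 5 libraries, a value was picked out where its gap to the nearest other library exceeded Dixon's 95% critical value for the group's range. Of 150 groups examined 5 met this, and chance gives about 1 in 20. In iTBS 1, Arrdc2 was at 4.26 CPM with the next library at 6.89 CPM, and Npas4 was at 20.7 CPM with the next at 34.8 CPM. In cTBS 5, Acp1 was at 35.8 CPM with the next at 40.3 CPM. In cTBS 4, Chmp2a was at 45.1 CPM with the next at 40.0 CPM, and Ttr was at 232 CPM with the next at 10.7 CPM.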

How the results depend on the processing

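In all 28 alternatives the 24 named genes kept their direction (672 values, 0 reversed, 3 now past the threshold). They were picked for the smallest pooled p in these same libraries. A kept direction was therefore nearly fixed in advance and is no independent evidence. Of 1120 list medians 13 moved by more than the spread of the list's level between libraries of a group, which is wide for some lists. The striatal median ran from -0.01 to 0.78 and the nuclear-retained RNA median from -0.64 to 0.06, and neither counted as moved. For stimulated against sham, 2 genes were called with DESeq2 and 1 (Hunk, adjusted p = 0.0422) in edgeR with 2 covariates, the levels of nuclear RNA and of striatal markers, and 0 in the other 26 alternatives. For iTBS against sham the count was 0 in all 27. For cTBS against sham it was 132 with DESeq2, 5461 with limma-voom and quality weights, and 0 to 5726 with 1 library left out (1 without iTBS 1, 5726 without sham 4). For iTBS against cTBS it was 2618 with DESeq2, 6853 with limma-voom and 0 to 4474 with 1 library left out (4474 without iTBS 1, 3637 without sham 4, 3380 without cTBS 5). Genes higher in both protocols numbered 85 without the expression filter, 91 with limma-voom, 120 with both covariates, 30 with the Gh level (added after the data were seen) and 37 to 176 with 1 library left out. Genes lower in both numbered 128, 63 and 97 under the first 3 of these, 57 with the nuclear RNA level alone and 15 to 94 with 1 library left out. The sets of 259 higher and 794 lower genes at unadjusted p under 0.05 held 1873 and 3054 without sham 4. Some small fold changes reversed. Fos was at -0.0147 with the Gh level. Nr4a1 was at -0.0843 without sham 2, sham 5 and cTBS 4 and -0.23 with the Gh level. Bdnf was at 0.0332 and Nptx2 at 0.0087 with the library number, and Gria1 at -0.0344 with both covariates. Grin1 was at 0.0104 without the filter, 0.0271 with limma-voom, 0.0221 with limma-trend on the deposited values, 0.0166 with the library number and 0.0564 with both covariates. With 1 library left out, Egr1 ran from -0.20 to 0.0575, Nr4a1 from -0.0399 to 0.15, Bdnf from -0.12 to 0.0824, Nptx2 from -0.17 to 0.0436 and Grin1 from -0.12 to 0.0705. The cause of these moves was not tested.

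The labels number the replicates 1 to 5 in each group but give the number no meaning, so the numbers were not taken as pairs. Deviations were correlated over 0.1 in 7 of 15 same-numbered pairs (range -0.564 to 0.717). Values for differently numbered pairs are not given here, so this count cannot settle whether the numbers pair libraries. In every group the replicate number rises with the running library number, so a replicate block also follows that number. A replicate block gave 0 called genes for stimulated against sham, 5 for iTBS against cTBS, 56 higher and 42 lower in both protocols, and Nr4a1 at -0.0269. Under the block 13 of 16 striatal markers reached unadjusted p under 0.05, against 0 without it, as did 11 against 8 glucocorticoid-induced genes, 1 against 3 thalamic and 0 against 2 choroid plexus markers. Over all tested genes, the numbers at that threshold ran from 163 to 1873 higher and 196 to 3054 lower in the 28 alternatives. The share under the block is not given here, so nothing is read from these member counts. Depth limits the low genes such as H19 and Arl11, and 5 sham libraries limit every comparison.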
